A study of Mus musculus with 4 samples.

Results

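The genes described here are 40 genes of the actomyosin and cortical cytoskeleton. They were taken by symbol from a list, out of 22063 genes in the deposited count table, and all 40 were found there. They comprise the non-muscle myosin II heavy and light chains with their kinases and phosphatase subunit, the actins, the filament cross-linkers, the tropomyosins, the calponins and transgelins, the factors of filament turnover, vinculin and talin, and the proteins that join filaments to the plasma membrane. RNA-sequencing of polyadenylated RNA was made from 4 libraries of TKPTS cells, a mouse line of renal proximal tubular cells that the labels call TKPT. All 4 came from cells that were exposed to 1% O2 for 24 h and returned to normal oxygen for 12 h. In 2 libraries (si-NC, replicates 2 and 3) the cells had been transfected with a scrambled control siRNA, with the genotype given as WT, and in 2 libraries (si-*Itgb6*, replicates 1 and 3) with an siRNA against *Itgb6*, the integrin β6 subunit, with the genotype given as *Itgb6* knockdown. Both groups therefore share the cell line, the transfection and the hypoxia, and untransfected or normoxic cells were not analysed here. Nothing in the labels says that the replicates were separate cultures, so that p-values measure the spread between these samples, which may be technical.

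Non-muscle cells contract by sliding bipolar filaments of myosin II along actin filaments. Phosphorylation of the regulatory light chains, by myosin light chain kinase and other kinases, switches the motor on, and myosin phosphatase switches it off. Cross-linkers such as α-actinin and filamin, and side-binding proteins such as tropomyosin and calponin, set how stiff and how accessible the network is, while talin and vinculin couple it to integrins and the ERM proteins couple it to the plasma membrane. In the proximal tubule this network carries the brush border and the basal adhesion of the cells, and it is rearranged when the epithelium is injured.

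*Itgb6* itself (ENSMUSG00000026971), the gene the siRNA targets, was read 285 and 284 times in the control libraries and 279 and 260 times in the libraries labelled si-*Itgb6* (replicates 1 and 3). The groups overlapped, and the log2 fold change came to -0.0051 (standard error 0.13, adjusted p = 0.991). The mRNA level thus gives no check of the group labels, and every direction below is that of the libraries labelled si-*Itgb6* against the libraries labelled si-NC. Totals ran from 15435087 to 17220285 counts per library, and the common biological coefficient of variation was 0.0551. Of 9 epithelial markers all 9 were tested, led by *Krt19*, *Krt18* and *Krt8* at means of 2440, 864 and 731 CPM (counts scaled to the library's total, after edgeR's TMM correction for composition). Of 12 proximal tubular markers 8 were tested, led by *Pax8*, *Havcr1* and *Cdh16* at 324, 253 and 141 CPM, while *Slc34a1* and *Slc5a2* were at 0 in all 4 libraries. The libraries thus held epithelial keratins at high levels, and transcripts of those 2 apical transporters were not detected at this depth.

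In the libraries labelled si-*Itgb6*, 9 of the 37 members tested were lower at an adjusted p under 0.05 and 1 was higher. The 9 were the myosin heavy chains *Myh9* and *Myh14*, talin 1 (*Tln1*), calponin 2 (*Cnn2*), transgelin 2 (*Tagln2*), filamin A (*Flna*), profilin 1 (*Pfn1*), moesin (*Msn*) and α-actinin 4 (*Actn4*), and the 1 higher was the kinase *Rock1*. The changes were small, and the means of the 9 lower members differed from the si-NC means by between -31.2% and -11.4%. The 9 are 24.3% of the members tested, where 2.52% of all 11727 genes tested were lower and 2.11% were higher by the same rule. These shares are a description. The members were chosen with earlier results of these data known, and the background was not matched to them in level. At the thresholds the study used, an unadjusted p under 0.05 with a fold change over 1.2, 5 members were lower (*Myh14*, *Myh9*, *Tln1*, *Cnn2* and *Tagln2*) against a background of 5.2%, and 1 was higher (*Rock1*) against 4.37%. No member passed a fold change of 1.5. These counts moved with the libraries used. Without si-NC replicate 2, *Myh9* was the only member called, and 13 of all genes were called in place of 542. Without si-NC replicate 3, 5 members were called, all lower, beside 222 of all genes. Leaving out an si-*Itgb6* library left 1 library in that group. The members' median log2 fold change was -0.106 without si-*Itgb6* replicate 1 and -0.083 without si-*Itgb6* replicate 3, beside -0.090 with all 4 libraries.

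**Figure D1:**
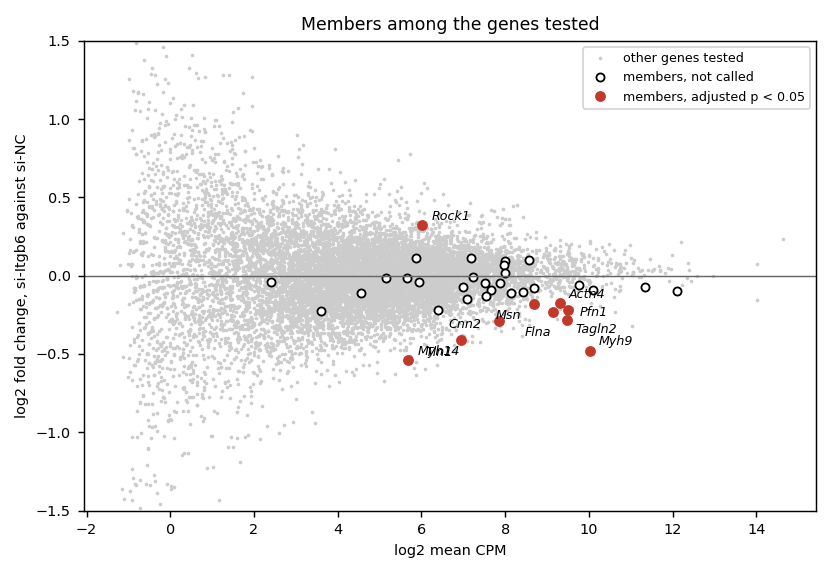
Log2 fold change (libraries labelled si-Itgb6 against si-NC) over the log2 mean CPM for all 11727 genes tested (grey), the members not called (open circles) and the 10 members with an adjusted p under 0.05 (red); 30 genes lie beyond 1.5 on the vertical axis and are not drawn. The 9 lower members lie in the lower part of the grey cloud and *Rock1* in its upper part.

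Promoter sequences are shown for 4 of the lower members and for the most abundant member, *Actg1*, because several members are textbook targets of serum response factor, which binds the CArG box. They span 250 bases before to 50 bases after the start site, 5′ to 3′ on the gene's strand, from RefSeq on GRCm38.p6. Capitals mark matches on either strand to the CArG box, to GGAATG (the core bound by TEAD factors), to GGGCGG (the GC box) and to TATAAA, and neighbouring GC boxes can overlap.
*Myh9* (chr15:77842126-77842425, minus strand): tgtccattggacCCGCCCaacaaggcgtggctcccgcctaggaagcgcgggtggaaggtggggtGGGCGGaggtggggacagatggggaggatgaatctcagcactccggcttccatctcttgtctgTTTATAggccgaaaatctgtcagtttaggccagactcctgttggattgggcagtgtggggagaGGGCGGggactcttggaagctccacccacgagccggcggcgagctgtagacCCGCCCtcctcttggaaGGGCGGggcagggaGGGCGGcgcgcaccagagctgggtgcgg
*Cnn2* (chr10:79988350-79988649, plus strand): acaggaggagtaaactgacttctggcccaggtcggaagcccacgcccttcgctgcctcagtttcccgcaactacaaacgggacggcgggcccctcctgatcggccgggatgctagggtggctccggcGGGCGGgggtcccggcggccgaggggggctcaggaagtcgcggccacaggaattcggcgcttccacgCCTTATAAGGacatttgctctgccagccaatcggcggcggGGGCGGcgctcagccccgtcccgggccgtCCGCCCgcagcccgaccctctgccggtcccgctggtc
*Tagln2* (chr1:172499996-172500295, plus strand): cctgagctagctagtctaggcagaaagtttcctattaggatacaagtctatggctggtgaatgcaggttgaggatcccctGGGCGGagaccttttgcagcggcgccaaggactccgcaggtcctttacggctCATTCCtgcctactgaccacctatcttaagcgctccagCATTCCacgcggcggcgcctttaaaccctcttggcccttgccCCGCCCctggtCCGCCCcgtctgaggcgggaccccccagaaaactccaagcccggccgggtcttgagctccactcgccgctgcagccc
*Pfn1* (chr11:70654601-70654900, minus strand): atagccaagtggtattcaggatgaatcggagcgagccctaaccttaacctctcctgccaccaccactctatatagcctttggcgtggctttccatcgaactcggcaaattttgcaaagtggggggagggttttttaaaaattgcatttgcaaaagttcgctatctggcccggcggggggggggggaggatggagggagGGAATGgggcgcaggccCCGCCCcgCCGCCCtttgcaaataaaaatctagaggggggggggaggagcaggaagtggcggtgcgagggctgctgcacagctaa
*Actg1* (chr11:120348446-120348745, minus strand): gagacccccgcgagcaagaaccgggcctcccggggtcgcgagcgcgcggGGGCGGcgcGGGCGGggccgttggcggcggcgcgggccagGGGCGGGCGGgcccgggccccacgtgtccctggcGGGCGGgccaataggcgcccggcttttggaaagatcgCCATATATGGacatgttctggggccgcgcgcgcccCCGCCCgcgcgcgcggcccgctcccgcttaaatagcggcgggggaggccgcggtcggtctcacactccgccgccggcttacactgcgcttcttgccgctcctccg

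In these promoters the CArG box of *Cnn2* began 56 bases before the start site and that of *Actg1* 90 bases before it. *Myh9*, *Tagln2* and *Pfn1* had no CArG box within the window, and GGAATG was found at 2 places in *Tagln2* and at 1 place in *Pfn1*. A promoter was found in the RefSeq table for 35 of the 40 members, 6 of them with several, and *Actb*, *Tagln*, *Svil*, *Rock1* and *Diaph1* were not matched. A CArG box was present in 6 of the 35 members (17.1%; *Actg1*, *Cnn2*, *Lima1*, *Myl6*, *Myl9* and *Vcl*), against 1.63% of all 32851 promoters of this length. Of these 6 only *Cnn2* was among the lower members. GGAATG was present in 13 members (37.1% against 14.7%), of which 4 were among the 9 lower members (*Actn4*, *Flna*, *Pfn1* and *Tagln2*). The GC box was present in 29 members (82.9% against 35.7%), 8 of them lower, and TATAAA in 3 (8.57% against 13.6%), 1 of them lower (*Myh9*). A member with several promoters had several chances of a match, and a match in these letters is a description and not a bound site.

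The myosin heavy chains, the motors of the network, held the lowest fold changes. *Myh9* (ENSMUSG00000022443; chr15:77760587-77842175, minus strand, GRCm38), the chain of myosin IIA, had 1318 and 1112 CPM in si-NC replicates 2 and 3 and 865 and 879 CPM in si-*Itgb6* replicates 1 and 3. All si-*Itgb6* values lay below all si-NC values, and the 2 control libraries lay further apart than the 2 others. The log2 fold change came to -0.48 (standard error 0.054, 95% confidence interval -0.59 to -0.37, adjusted p = 1.97e-06). *Myh14* (ENSMUSG00000030739; chr7:44605803-44670843, minus strand), the chain of myosin IIC, had 64.3 and 58.0 CPM in si-NC and 43.2 and 41.0 CPM in si-*Itgb6*, again with no overlap. Its log2 fold change came to -0.54 (standard error 0.086, interval -0.71 to -0.36, adjusted p = 0.000181). The FPKM values of *Myh14* did overlap between the groups, at 18.4 and 11.9 in si-NC and 9.25 and 13.2 in si-*Itgb6*. The length implied by its deposited counts and FPKM ranged 1.60-fold between libraries, the only member in which it ranged over 1.2-fold. Exons of *Myh14* also overlap *2310016G11Rik* on the opposite strand, and reads of the 2 genes cannot be told apart without strand. *Myh10*, the chain of myosin IIB, was at 209 ± 7.38 CPM (SD, n = 2) for si-NC against 196 ± 6.95 CPM for si-*Itgb6*, with a log2 fold change of -0.09 and an adjusted p of 0.411.

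Per length, *Myh9* was the main heavy chain, with an FPKM 5.42 times that of *Myh10* over the 4 libraries. Its part of the summed FPKM of the 3 chains was 79.5% and 79.8% in si-NC and 77.6% and 75.2% in si-*Itgb6*, while that of *Myh10* was 12.3% and 13.9% against 16.3% and 16.3%. The parts of *Myh9* and *Myh10* did not overlap between the groups and that of *Myh14* did. With 2 libraries a group, no exact permutation test of a single value can go below p = 0.333, so that these parts are given as values.

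The myosin light chains gave no call. *Myl6*, the essential light chain, had 245 and 248 CPM in si-NC and 239 and 287 CPM in si-*Itgb6*, so that its groups overlapped (log2 fold change 0.09, adjusted p = 0.452). *Myl12a*, a regulatory light chain, had 290 and 296 CPM in si-NC and 268 and 274 CPM in si-*Itgb6*. The libraries did not overlap, but the log2 fold change of -0.11 did not pass (adjusted p = 0.256). Its near-identical neighbour *Myl12b* was at 139 ± 2.83 CPM (SD, n = 2) and 151 ± 4.72 CPM, with a log2 fold change of 0.11 and an adjusted p of 0.336. *Myl12a* took 76.2% and 76.9% of the summed regulatory chain FPKM in si-NC and 73.9% and 74.0% in si-*Itgb6*. The estimated counts of both were not whole in any library, so that reads shared by near-identical copies may have been divided between them, and the balance of the pair is uncertain. The smooth muscle form *Myl9* had 1 count in all 4 libraries together and was not tested.

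Among the enzymes that set light chain phosphorylation, *Rock1* (ENSMUSG00000024290) was the only member called higher. It had 58.9 and 56.5 CPM in si-NC and 70.7 and 73.6 CPM in si-*Itgb6*, with no overlap. Its log2 fold change came to 0.32 (standard error 0.078, interval 0.16 to 0.48, adjusted p = 0.0112). *Rock2*, its close relative, showed a log2 fold change of -0.07 (adjusted p = 0.610), and the part of *Rock1* in the summed FPKM of the pair was 36.1% and 35.0% in si-NC and 41.2% and 43.3% in si-*Itgb6*. *Rock1* lost its call without si-NC replicate 2, si-NC replicate 3 or si-*Itgb6* replicate 3, with adjusted p-values of 0.211, 0.15 and 0.0564. *Ppp1r12a*, the targeting subunit of myosin phosphatase, was at 55.8 ± 0.348 CPM (SD, n = 2) and 60.4 ± 0.0658 CPM, with a log2 fold change of 0.11 and an adjusted p of 0.475. *Mylk*, the myosin light chain kinase of smooth muscle, was low at a mean of 0.682 FPKM, and the interval of its log2 fold change, from -0.50 to 0.42, includes a change as large as that of *Myh9*.

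**Figure D2:**
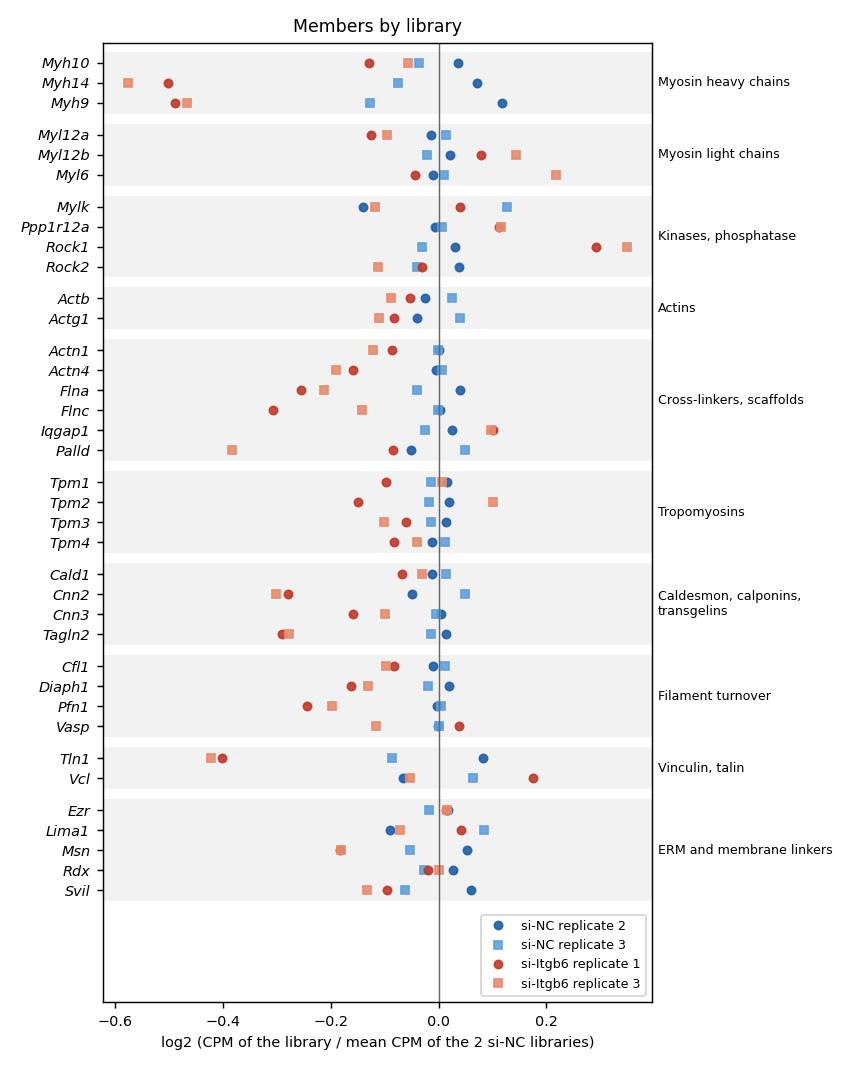
Each library's CPM divided by the mean of the 2 si-NC libraries, on a log2 scale, for the 37 members tested, ordered by role (si-NC in blue, si-Itgb6 in red, one symbol per library). The si-NC libraries of *Myh9*, *Myh14* and *Tln1* spread more than those of *Tagln2*, *Pfn1* and *Actn4*, and the red symbols of all of these lie to the left of the blue ones.

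The actins, the filaments themselves, were the most abundant members. *Actg1*, cytoplasmic γ-actin, had 4423 and 4673 CPM in si-NC and 4293 and 4214 CPM in si-*Itgb6*. *Actb*, cytoplasmic β-actin, had 2597 and 2688 CPM in si-NC and 2546 and 2487 CPM in si-*Itgb6*. In both the groups did not overlap but lay close together, with log2 fold changes of -0.10 and -0.07 and adjusted p-values of 0.180 and 0.381. By mean FPKM *Actg1*, at 2259, was the member in rank 1 and ranked 20 among all genes listed. *Actb*, at 1395 FPKM, ranked 57. The ratio of the mean FPKM of *Actg1* to that of *Actb* was 1.62, and the part of *Actb* in their sum moved by 0.218 percentage points between the groups. The 2 genes held 40.1% of all counts of the members. *Acta2*, the smooth muscle actin that marks myofibroblasts, was at 0 in all 4 libraries, where a count of 0 allows up to 3 counts per library.

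The cross-linkers and scaffolds, which bundle filaments or hold them at angles, gave 2 lower calls among 6 members. *Flna* (ENSMUSG00000031328; chrX:74223461-74249820, minus strand), the main filamin here, had 631 and 597 CPM in si-NC and 514 and 530 CPM in si-*Itgb6*. *Actn4* (ENSMUSG00000054808; chr7:28893248-28962340, minus strand), an α-actinin of stress fibres and podocyte foot processes, had 672 and 677 CPM in si-NC and 604 and 591 CPM in si-*Itgb6*. Neither gene overlapped between the groups, and the log2 fold changes were -0.23 (standard error 0.049, adjusted p = 0.00319) for *Flna* and -0.17 (standard error 0.047, adjusted p = 0.0266) for *Actn4*. Exons of *Actn4* overlap *Capn12* on the opposite strand, and in 2 libraries it was given a count that was not whole. *Flnc* was at 90.3 ± 0.166 CPM (SD, n = 2) for si-NC against 77.3 ± 6.23 CPM in si-*Itgb6*, and its log2 fold change of -0.22 did not pass (adjusted p = 0.0793). Filamin A gave 88.3% and 87.8% of the summed filamin FPKM in si-NC and 88.4% and 87.5% in si-*Itgb6*. The remaining 3 did not pass either, *Actn1* at -0.10, *Palld* (palladin) at -0.23 and the scaffold *Iqgap1* at 0.10, with adjusted p-values of 0.271, 0.461 and 0.293.

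The tropomyosins, coiled-coil dimers that lie along the filament and control the access of myosin, gave no call. The most abundant, *Tpm4*, had 881 and 896 CPM in si-NC and 839 and 864 CPM in si-*Itgb6* (log2 fold change -0.06, adjusted p = 0.514). The libraries of *Tpm4* did not overlap, although the nearest 2 were close. *Tpm1*, *Tpm2* and *Tpm3* had log2 fold changes of -0.04, -0.02 and -0.08 with intervals that all covered 0. *Tpm4* held 52.4% and 53.3% of the summed tropomyosin FPKM in si-NC and 52.8% and 52.3% in si-*Itgb6*, and no tropomyosin's part moved by as much as 1 percentage point.

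Among the side-binding proteins, calponin 2 and transgelin 2, close relatives that stabilise filaments, were called lower. *Tagln2* (ENSMUSG00000026547; chr1:172500047-172507380, plus strand) had 787 and 771 CPM in si-NC and 637 and 643 CPM in si-*Itgb6*. *Cnn2* (ENSMUSG00000004665; chr10:79988584-79996062, plus strand) had 247 and 264 CPM in si-NC and 211 and 207 CPM in si-*Itgb6*. The gap between the groups was wider than the spread within either one for both genes. The log2 fold change of *Tagln2* came to -0.28 (standard error 0.047, adjusted p = 0.000265), and that of *Cnn2* was -0.29 (standard error 0.056, adjusted p = 0.00139). Calponin 3 (*Cnn3*), of like abundance per length, showed a log2 fold change of -0.13 (adjusted p = 0.218), and the part of *Cnn2* in the summed calponin FPKM was 50.9% and 52.6% in si-NC and 47.6% and 47.6% in si-*Itgb6*. Caldesmon (*Cald1*) showed a log2 fold change of -0.05 (adjusted p = 0.710). *Tagln*, the smooth muscle transgelin, had 14, 6, 8 and 4 counts and was not tested.

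Of the factors of filament turnover, profilin 1 was lower. *Pfn1* (ENSMUSG00000018293; chr11:70651850-70654644, minus strand), which delivers actin monomers to growing ends, had 785 and 789 CPM in si-NC and 664 and 686 CPM in si-*Itgb6*. Its libraries did not overlap, and the log2 fold change came to -0.22 (standard error 0.047, adjusted p = 0.00345). *Cfl1*, the severing factor cofilin 1, had 1131 and 1148 CPM in si-NC and 1075 and 1066 CPM in si-*Itgb6* (log2 fold change -0.09, adjusted p = 0.273). *Cfl1* did not overlap in CPM but did overlap in FPKM, as did *Palld* and *Cald1*. The formin *Diaph1* and the filament elongation factor *Vasp* had log2 fold changes of -0.15 and -0.04, with adjusted p-values of 0.186 and 0.853.

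Talin 1 and vinculin, which act one after the other at integrin adhesions, differed in their calls. *Tln1* (ENSMUSG00000028465; chr4:43531519-43562691, minus strand), which binds the tails of β integrins, had 150 and 133 CPM in si-NC and 107 and 105 CPM in si-*Itgb6*. The groups did not overlap, and the log2 fold change came to -0.41 (standard error 0.067, interval -0.55 to -0.28, adjusted p = 0.000264). *Vcl*, vinculin, was at 247 ± 15.8 CPM (SD, n = 2) for si-NC against 258 ± 28.8 CPM in si-*Itgb6*, with overlapping groups and a log2 fold change of 0.06 (interval -0.06 to 0.19, adjusted p = 0.640). The difference between the changes of the 2 genes was not tested. Exons of *Tln1* overlap *Creb3* and those of *Vcl* overlap *Ap3m1*, each on the opposite strand.

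At the membrane, moesin was the one ERM protein called. *Msn* (ENSMUSG00000031207; chrX:96096042-96168552, plus strand) had 452 and 420 CPM in si-NC and 384 and 384 CPM in si-*Itgb6*. The 2 si-*Itgb6* libraries were nearly equal and below both controls, and the log2 fold change came to -0.18 (standard error 0.051, adjusted p = 0.0335). Ezrin (*Ezr*), the ERM protein of the brush border, and radixin (*Rdx*) had log2 fold changes of 0.02 and -0.01, with intervals of -0.09 to 0.12 and -0.13 to 0.11. The part of *Msn* in the summed ERM FPKM was 49.5% and 48.2% in si-NC and 45.4% and 45.6% in si-*Itgb6*. Supervillin (*Svil*) and *Lima1*, which link filaments to the membrane and to one another, did not pass, at -0.11 and -0.02.

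**Figure D3:**
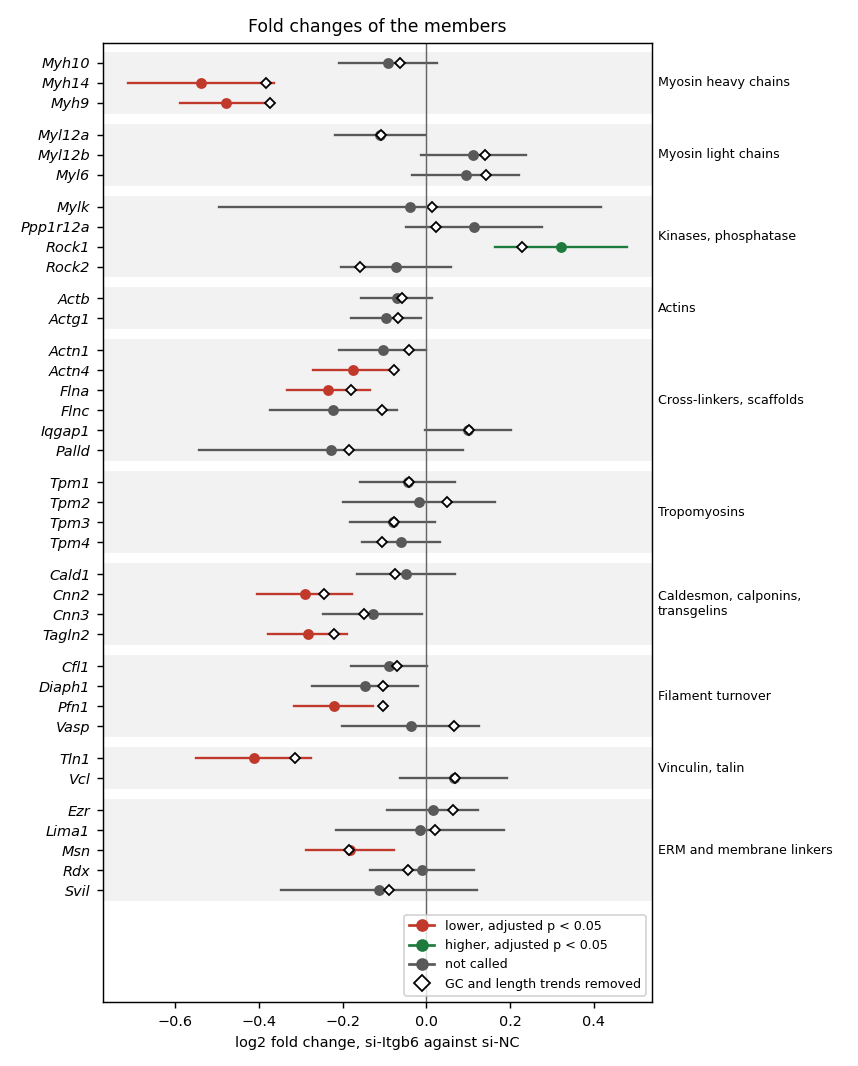
Log2 fold change of the 37 members tested with its 95% confidence interval (circles and bars, red and green where the adjusted p was under 0.05), and the same value after removal of trends on GC content and transcript length (open diamonds). For the lower members other than *Msn* the diamonds lie nearer to 0 than the circles, and the intervals of the tropomyosins and light chains cross or nearly reach 0.

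Over all 37 members tested, 30 had a negative and 7 a positive log2 fold change, and their median was -0.09, beside 0.00017 over all genes tested. The 27 members that were not called ran from -0.23 to 0.11, 21 of them negative. In 23 members every si-*Itgb6* library lay below every si-NC library (62.2%, where 25.4% of all genes tested did so), and in 4 it lay above (10.8%, where 23.8% of all genes did). The median difference between the 2 libraries of a group was 0.041 on the log2 scale in si-NC and 0.040 in si-*Itgb6*, with a largest value of 0.27 and 0.30. All 37 members kept the sign of their change when the deposited FPKM values were used in place of the counts, and 8 of the 9 lower members did not overlap on that scale, the exception being *Myh14*. Together the 40 members held 1.82% and 1.82% of all counts in si-NC and 1.67% and 1.64% in si-*Itgb6*. The difference was -0.168 percentage points (two-sided exact permutation test, p = 0.333, the smallest this design allows), and it was -0.0840 without *Actb*, *Actg1* and *Myh9*. In bulk RNA, fewer cells with a transcript and less of it per cell cannot be told apart.

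**Figure D4:**
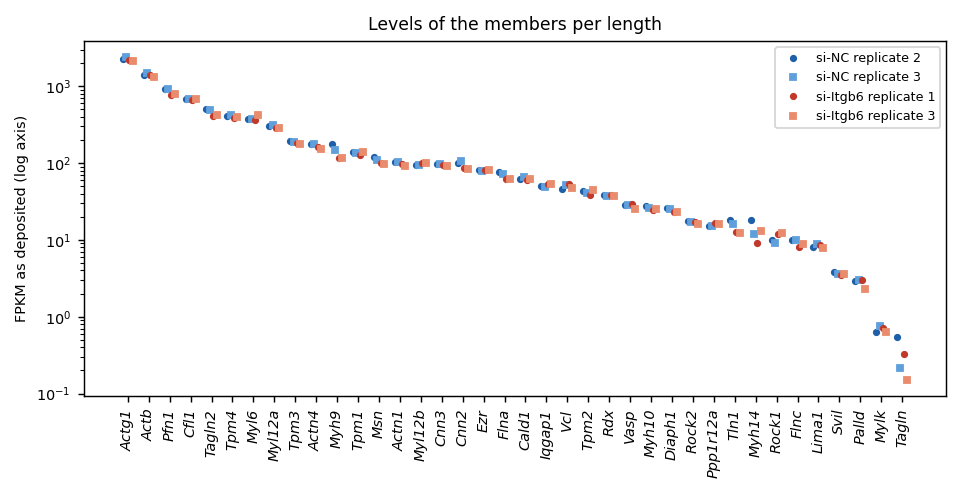
Deposited FPKM of the members in each library, on a log axis, ordered by the mean over the 4 libraries (members under 0.1 FPKM left out). The members span from *Actg1* at 2259 FPKM to *Tagln* at 0.309, and the spread between libraries is small beside the differences between members.

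The called members ran from a mean of 10.9 FPKM (*Rock1*) to 850 FPKM (*Pfn1*). No member under 10 FPKM was called, and of those *Acta2*, *Myl9* and *Tagln* were not tested. Of the 40, 13 had a mean over 100 FPKM, 19 lay between 10 and 100, 4 between 1 and 10 and 4 under 1. Of the 8 most abundant (*Actg1*, *Actb*, *Pfn1*, *Cfl1*, *Tagln2*, *Tpm4*, *Myl6* and *Myl12a*) only *Pfn1* and *Tagln2* were called, and *Myh14* and *Tln1* were called at means of 13.2 and 14.8 FPKM. The 4 members under 1 FPKM included the smooth muscle forms *Acta2*, *Myl9* and *Tagln*. Of 12 further genes of muscle contraction, 8 had under 10 counts in all 4 libraries together, *Actc1*, *Lmod1* and *Myocd* were at 0, and *Smtn* carried the list at 441 CPM.

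The changes moved with the base composition of the transcripts. Across all 11709 genes tested with a known GC content, the log2 fold change fell with GC content (Spearman's rank correlation coefficient -0.364, a description over genes that are not replicates), and across the 37 members the coefficient was -0.542. The lower members had transcripts of 47.7% to 60.8% GC, with a median of 55.8%, against 51.1% for the members not called, and *Rock1* had 40.2%. With the trends on GC content and length removed from each library, 6 members stayed called (*Cnn2*, *Msn*, *Myh14*, *Myh9*, *Tagln2* and *Tln1*), beside 1.84% of all genes. *Myh9* was then at -0.37 (adjusted p = 0.000612), *Myh14* at -0.38 (0.0138), *Tln1* at -0.31 (0.0129), *Cnn2* at -0.24 (0.0159), *Tagln2* at -0.22 (0.00644) and *Msn* at -0.19 (0.0424). *Flna* at -0.18, *Rock1* at 0.23, *Pfn1* at -0.10 and *Actn4* at -0.08 were no longer called, with adjusted p-values of 0.0524, 0.127, 0.235 and 0.396. The median of the members was then -0.07, and their rank correlation with GC content was -0.28, so that part of the trend remained among them. What part the base composition of the libraries had in these changes was not tested further.

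**Figure D5:**
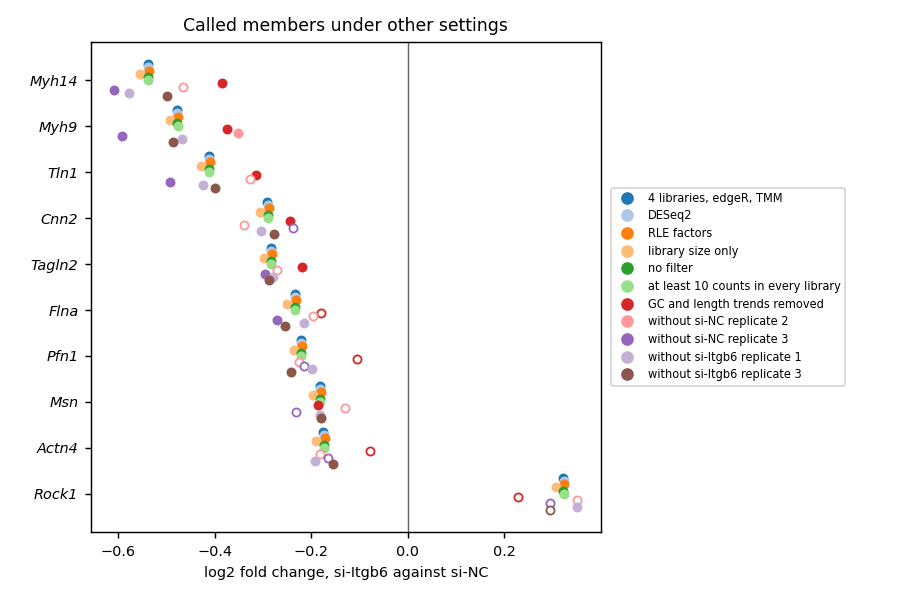
Log2 fold change of the 10 called members with the 4 libraries and under each other setting (one colour per setting; filled where the adjusted p was under 0.05, open where not). No member changes sign, and the open symbols come from the fits without one of the si-NC libraries, from the GC and length correction and, for *Rock1*, from the fit without si-Itgb6 replicate 3.

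Beside the members, a list held 36 genes of branched filaments, capping and depolymerisation, all tested, of which 0 were lower and 1 was higher by edgeR, a share near the 2.11% of all genes called higher. The 1 was *Wasl* (N-WASP, an activator of filament branching), with 171 and 175 CPM in si-NC and 209 and 190 CPM in si-*Itgb6* (0.21, standard error 0.060, adjusted p = 0.0396). The median of this list was 0.0052, with 17 negative and 19 positive values. *Wasl* was not called by DESeq2 (adjusted p = 0.0578), which called 0 lower and 0 higher, nor with the GC and length trends removed, nor without either si-NC library, and 3 genes of the list were called without si-*Itgb6* replicate 1. At an unadjusted p under 0.05, 0 genes of the list were lower and 3 higher, where 2160 of all 11727 genes tested passed in either direction. The most abundant genes of the list, *Dstn*, *Actr3* and *Arpc2*, were at 1080, 620 and 481 CPM.

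Of 21 genes around serum response factor, its cofactors and its known targets, which partly repeat the list above, 19 were tested. Of these 4 were lower and 1 was higher, where 2.52% of all genes tested were lower and 2.11% were higher. The list's median was -0.09, with 12 negative and 7 positive values. The si-*Itgb6* libraries lay below the si-NC libraries without overlap in 10 genes and above in 3, where 25.4% and 23.8% of all genes tested did so. *Srf*, the factor itself, had 34.2 and 32.3 CPM in si-NC and 25.5 and 23.1 CPM in si-*Itgb6* (-0.45, standard error 0.11, adjusted p = 0.0103). The matricellular gene *Ccn1* had 197 and 185 CPM against 161 and 154 CPM (-0.28, standard error 0.060, adjusted p = 0.00453). *Zyx* (zyxin) and *Junb* were lower at -0.22 and -0.23, with adjusted p-values of 0.0376 and 0.0161, and *Filip1l*, a relative of a filamin-binding protein, was higher at 0.45 (adjusted p = 0.00624). In all 5 the groups did not overlap. DESeq2 called 4 of the 5 and not *Zyx* (adjusted p = 0.0675). With the GC and length trends removed, *Ccn1* at -0.24 and *Filip1l* at 0.40 stayed called, and *Srf* at -0.26 did not (adjusted p = 0.219). Without si-NC replicate 2 none of the list was called, without si-NC replicate 3 there were 2 calls and without si-*Itgb6* replicate 3 there were 3.

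Markers of other cell types were read from 3 lists. The fibroblast list was near 0, while a few genes carried the sums of the endothelial and macrophage lists. The summed level of 10 fibroblast markers was 3.19 to 3.76 CPM in si-NC and 3.28 to 6.01 CPM in si-*Itgb6*. Of them 1 was tested and 6 had under 10 counts in every library. The largest value came from si-*Itgb6* replicate 1, where *Col1a1* reached 1.42 CPM, *Col3a1* 0.904 CPM and *Col1a2* 0.711 CPM. These were 22, 14 and 11 counts, against at most 2 in any other library. *Pdgfrb*, the most abundant of the list, was lowest in that library, at 2.26 CPM. The sum of 8 endothelial markers was 98.4 to 99.4 CPM and 98.4 to 108 CPM, nearly all of it *Flt1* at a mean of 97.3 CPM, with *Cldn5* and *Emcn* at 0. Macrophage markers summed to 142 to 152 CPM in si-NC and 133 to 138 CPM in si-*Itgb6*. Most of it came from *Cd68*, *Csf1r* and *Cd14*, at means of 104, 26.0 and 9.86 CPM. Of the 10 macrophage markers 5 had under 10 counts in every library (*Ptprc*, *Adgre1*, *Itgam*, *Fcgr1* and *Tyrobp*). *Lyz2* had 11 counts in si-*Itgb6* replicate 1 and 0 in every other library. Of the 4 macrophage markers tested edgeR called 0, with 1 at an unadjusted p under 0.05 and 0 called by DESeq2. Among the proximal tubular markers *Aqp1* was higher at 0.59 (adjusted p = 0.000617) and *Havcr1*, the injury marker KIM-1, at 0.19 (adjusted p = 0.0358), and among the epithelial markers *Krt8* was lower at -0.20 (adjusted p = 0.00881). With the GC and length trends removed, *Aqp1* at 0.65 stayed called (adjusted p = 0.00125), while *Havcr1* at 0.12 and *Krt8* at -0.11 did not (0.239 and 0.200). Leaving out 1 library took the adjusted p of *Aqp1*, *Havcr1* and *Krt8* to as much as 0.148, 0.498 and 0.322. The epithelial list as a whole lay below 0 as the members did. Of its 9 genes, 8 had a negative log2 fold change, with a median of -0.13 (-0.11 after the GC and length correction) beside -0.09 for the members. In 5 of the 9 the si-*Itgb6* libraries lay below the si-NC libraries without overlap, where 25.4% of all genes tested did so. The same 5 were lower at an unadjusted p under 0.05 (*Krt8*, *Epcam*, *Cdh1*, *Cldn7* and *Tjp1*, the last 4 named after their values were seen). Of all 11727 genes tested, 2160 were under that p in either direction. The part of these markers in the changes of the members was not tested.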

How the data were processed

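RNA was sequenced in 4 libraries of hypoxic TKPTS cells, as polyadenylated, paired and unstranded reads. The authors deposited estimated counts per gene, without normalization and with decimals for 1447 to 1500 genes in each library, and FPKM values, which the authors normalized per length and library. The aligner, counter and genome build are not given in the sources used here. Whether libraries were left out when the study optimized its samples is not known.

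Counts were rounded before testing. Low genes were removed with filterByExpr of edgeR 4.0.16 (minimum count 10, minimum total 15), which left 11727 of 22063 genes and 37 of 40 members. *Acta2*, *Myl9* and *Tagln* were not tested. Libraries were normalized by TMM and the groups were set against each other by the quasi-likelihood test of edgeR (R 4.3.3), and p-values were adjusted by Benjamini-Hochberg over every gene tested. Unless another tool is named, adjusted p-values are from this fit. Intervals are at 95%. The FPKM values entered no test across genes and served for levels and for parts of a family. Totals were 15435087 to 17220285 counts, and intervals and floors cover only these samples.

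GC content, length, exon overlaps and coordinates are from GENCODE vM21 (GRCm38), matched by gene identifier, and may differ from the annotation the authors used. GC content and length were taken from the longest transcript of each gene, and their trends were removed with lowess offsets. Alternatives were DESeq2 1.42.0, other normalizations and filters, this correction and leaving out each library, and FPKM in place of counts for the members' fold changes was added after seeing the data.

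The members and lists were chosen with earlier results of these data known. All members are named. Every library's value is given for members past either set of thresholds and for the 8 with the highest mean FPKM. In other lists, genes with an adjusted p under 0.05 are named, at most 6 per list, and markers at 0 or among the 3 most abundant. One list of signalling genes is not reported here.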

Additional observations from a re-analysis of the deposited data

How the results depend on the processing

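The same 10 members were called with DESeq2, RLE factors, library size only, no filter and at least 10 counts in every library. With the GC and length trends removed, 6 were lower and 0 higher at an adjusted p under 0.05, where 104 and 111 of all 11709 genes were. At the study's thresholds 3 members were then lower and 0 higher, where 839 of the 11709 genes passed in either direction. No member passed when the fold had to exceed 1.5 (0 lower, 0 higher). With 1 library left out the members called changed, and each such fit leaves 1 library in a group. Without si-NC replicate 2 the only call was *Myh9*, without si-NC replicate 3 the calls were *Flna*, *Myh14*, *Myh9*, *Tagln2* and *Tln1*, and over all genes the calls were 13 and 222. Without si-*Itgb6* replicate 1 *Actg1* and *Myl6* were added, and without si-*Itgb6* replicate 3 *Flnc* was added and *Rock1* lost. In these fits the lone library is assumed to vary like the other group. The median log2 fold change of the members was -0.10 with library size only and -0.075 after the GC and length correction, and -0.106 to -0.083 with 1 library left out. Library size only moved the median of all genes to -0.014. The difference in the share of counts was -0.130 percentage points from FPKM, -0.0840 without *Actb*, *Actg1* and *Myh9*, and -0.184 to -0.152 with 1 library left out.

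The list of branching and capping gave 0 with DESeq2, library size only or this correction, and 0 to 3 with 1 library left out. The list around serum response factor gave 2 and 0 to 6. *Itgb6* ran from -0.10 to 0.091 with 1 library left out. With the GC and length trends removed, *Mylk* turned to 0.013, *Tpm2* to 0.048, *Vasp* to 0.066 and *Lima1* to 0.021. With 1 library left out, *Myl6* ran from -0.040 to 0.22, *Mylk* from -0.17 to 0.11, *Tpm1* from -0.095 to 0.0061, *Tpm2* from -0.15 to 0.10, *Vasp* from -0.12 to 0.041, *Vcl* from -0.054 to 0.18, *Rdx* from -0.033 to 0.016 and *Lima1* from -0.10 to 0.079. None of these 8 was called with all 4 libraries. The cause of these moves was not tested. No paired analysis was possible because the groups share only 1 replicate number.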
